A study of Mus musculus with 24 samples.

Results

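The 10 genes described here are mRNAs that mark alternatively activated and tissue-resident macrophages: the secreted factors Ccl24, Retnla, Igf1 and Chil3, the enzyme Arg1, and the surface receptors Mrc1, Cd163, Folr2, Stab1 and Stab2. They are 10 of the 39056 genes in the count table. They were chosen by name with their levels in the CD45+ libraries already known, so differences in these genes between genotypes of CD45+ cells, or between CD45+ and CD45- cells, are given below as a description and without a test. All 10 passed the filter on low counts in CD45+ cells.

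The study asked how partial deficiency of HOIL1, a subunit of the linear ubiquitin chain assembly complex encoded by Rbck1, alters the cells of the mouse ileum, and whether the IL-4 receptor alpha chain (Il4ra) on epithelial cells takes part. Ileum from C57BL/6 mice aged 9 to 10.3 weeks was separated into epithelial and lamina propria cells after Peyer's patches had been removed, part of the epithelial cells was returned, and live CD45+ (leukocyte) and CD45- (epithelial, endothelial and stromal) singlets were sorted for bulk RNA-seq. Each fraction holds 4 genotypes with 3 libraries each, 24 libraries in all: Hoil1+/+ Il4ra f/f, Hoil1+/+ Il4ra dIEC, Hoil1-/- Il4ra f/f and Hoil1-/- Il4ra dIEC. Every mouse carried the floxed Il4ra allele. In dIEC mice the Vil1-Cre transgene, driven by the epithelial Villin promoter, deletes it in intestinal epithelial cells, whereas macrophages keep the receptor. Hoil1-/- is a germline allele, carried by leukocytes and epithelium alike, and Hoil1+/+ mice were littermates. The paper describes it as a partial deficiency, in which the N-terminal part of HOIL1 is still made at a low level. Each CD45+ sample plotted by the study came from an individual mouse, and whether the CD45- libraries came from the same mice was not given in the sources used here.

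The study left 3 libraries out of its analysis as outliers in a principal component analysis, and 2 of them bear directly on these genes: CD45+ Hoil1-/- Il4ra f/f replicate 1 and CD45+ Hoil1-/- Il4ra dIEC replicate 3. Fold changes below use the 10 CD45+ and 11 CD45- libraries that the study kept, and levels are given for all 12 of each fraction. Levels are given as CPM, the count of a gene per 1000000 counts on all genes of that library. The labels give the 12 CD45+ libraries ages of 9 or 9.1 weeks (5 libraries) or 9.4 to 9.9 weeks (7 libraries), and both CD45+ libraries that the study left out are among the younger 5. T cell markers, summed over 8 genes, were at 317 to 843 CPM in the younger libraries, and in the older ones at 2983 to 3508 CPM in Hoil1+/+ and 952 to 1428 CPM in Hoil1-/- libraries, so values are also given within each age group.

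Macrophages of the gut wall phagocytose dying cells and debris and renew the tissue, and most are replaced from blood monocytes while some are long-lived. IL-4 and IL-13, acting through the receptor chain encoded by Il4ra and the transcription factor STAT6, drive a programme called alternative activation, in which macrophages make arginase 1, the RELM family protein encoded by Retnla, chitinase-like proteins such as that of Chil3 and chemokines such as CCL24. Resident macrophages are recognised by scavenger and endocytic receptors (CD163, the mannose receptor MRC1, the folate receptor FOLR2 and stabilin-1) and by production of IGF-1. Several of these mRNAs are also made elsewhere: ILC2, the innate lymphoid cells that secrete IL-5 and IL-13, express Arg1, lymphatic and sinusoidal endothelium express Stab1 and Stab2, and fibroblasts express Igf1. In bulk samples, fewer cells of a type and less RNA per cell cannot be told apart.

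The genotype labels were checked first. Rbck1 was at 54.0 to 169 CPM in the 6 Hoil1+/+ CD45+ libraries and at 3.67 to 15.5 CPM in the 6 Hoil1-/- ones, and at 70.9 to 131 CPM against 0 to 8.71 CPM in CD45- cells. Ptprc, which encodes CD45, was at 179.6 to 845 CPM in CD45+ libraries and at 0 to 16.3 CPM in CD45- libraries. Total counts on genes were 14938629 to 76807504 in CD45+ libraries and 6028275 to 68345191 in CD45- libraries, so that 3 counts correspond to 0.0391 to 0.201 CPM and to 0.0439 to 0.498 CPM. The summed level of 18 core macrophage genes, which include the C1q chains, Apoe and Cx3cr1 and none of the 10 members, was 11025 to 33036 CPM in CD45+ and 368 to 942 CPM in CD45- libraries.

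The promoters of Retnla, Igf1 and Stab2 are shown because they are the members with the largest Hoil1 differences for which a promoter sequence was given, and because STAT6, the IL-4 and IL-13 factor, is known to bind the palindrome TTCNNNNGAA. The sequences are the 250 bases before the RefSeq start on GRCm38.p6, written 5′ to 3′ on the strand of the gene, with the match in capitals. Retnla is shown from chr16:48842359-48842608 on the plus strand, Igf1 from chr10:87860861-87861110 on the plus strand and Stab2 from chr10:87007943-87008192 on the minus strand. The Igf1 stretch lies inside the gene as annotated, which begins at chr10:87858265. It therefore belongs to a downstream start, and the search for Igf1 covers that start alone.
Retnla: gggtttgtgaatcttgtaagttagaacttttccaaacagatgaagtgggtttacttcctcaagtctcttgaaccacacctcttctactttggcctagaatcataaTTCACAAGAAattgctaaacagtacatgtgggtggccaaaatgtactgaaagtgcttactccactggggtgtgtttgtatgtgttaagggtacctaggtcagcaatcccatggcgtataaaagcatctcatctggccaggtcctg
Igf1: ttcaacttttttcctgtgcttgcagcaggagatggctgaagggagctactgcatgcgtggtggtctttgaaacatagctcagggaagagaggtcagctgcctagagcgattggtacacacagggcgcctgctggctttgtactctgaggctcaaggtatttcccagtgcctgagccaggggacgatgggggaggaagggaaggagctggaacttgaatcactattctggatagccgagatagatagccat
Stab2: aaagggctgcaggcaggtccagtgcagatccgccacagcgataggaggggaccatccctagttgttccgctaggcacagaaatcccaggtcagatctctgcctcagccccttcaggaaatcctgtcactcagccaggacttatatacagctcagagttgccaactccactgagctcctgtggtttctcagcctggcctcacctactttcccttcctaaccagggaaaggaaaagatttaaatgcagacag
The motif was searched in windows from 250 bases before to 50 bases after the start. It is its own reverse complement, so 1 search covers both strands. A window was given for 8 of the 10 members, all but Ccl24 and Arg1, and the motif was found in 1 of the 8, Retnla, where TTCACAAGAA begins 145 bases before the start. Of all 32851 windows in the table, 2284 (6.95%) hold it. A match is a description of the letters and not a binding site, and no match says only that these letters are not in this window.

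Retnla, which encodes the secreted RELM alpha protein and is among the most IL-4-responsive genes of mouse macrophages (chr16:48842551-48844461, plus strand), was the member with the largest difference. In Hoil1+/+ CD45+ cells it was at 0.413, 3.35 and 6.10 CPM in the Il4ra f/f libraries and at 1.32, 0.595 and 0.522 CPM in the dIEC libraries. In Hoil1-/- cells it was at 11.02 and 7.02 CPM in the 2 f/f libraries kept by the study and at 25.3 and 16.5 CPM in the 2 dIEC ones, with 217 and 11.5 CPM in the 2 left-out libraries. Every Hoil1-/- library lay above every Hoil1+/+ library, with and without the left-out ones, and 1 left-out library stood far above all others. Across all 6 against 6 libraries this held for 1 of the 10 members, where 0.0934% of all genes tested met the same condition. Hoil1+/+ libraries averaged 2.05 ± 2.27 CPM (SD, n = 6) and kept Hoil1-/- libraries 14.9 ± 7.90 CPM (SD, n = 4), and the fitted log2 difference was 2.93 (standard error 0.63). With all 12 libraries it was 4.39 (standard error 0.91), since the left-out f/f library raised the Hoil1-/- mean to 48.0 ± 82.9 CPM (SD, n = 6).

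Ccl24 encodes eotaxin-2, a chemokine that attracts eosinophils through CCR3 (chr5:135569937-135573049, minus strand). Its level was 6.96, 4.23 and 3.83 CPM in Hoil1+/+ f/f and 2.73, 1.63 and 2.53 CPM in Hoil1+/+ dIEC libraries. The Hoil1-/- libraries kept by the study held 22.1 and 4.48 CPM (f/f) and 24.7 and 26.4 CPM (dIEC), and the left-out ones 49.6 and 19.5 CPM. Thus 5 of 6 Hoil1-/- libraries exceeded the highest Hoil1+/+ library, and f/f replicate 3, at 4.48 CPM, lay within the Hoil1+/+ range. Mean levels of 3.65 ± 1.87 CPM (SD, n = 6) and, in the kept Hoil1-/- libraries, 19.4 ± 10.1 CPM (SD, n = 4) gave a log2 difference of 2.25 with a standard error of 0.39.

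Igf1 encodes insulin-like growth factor 1, a growth factor for epithelium and muscle (chr10:87858265-87937042, plus strand). Hoil1+/+ libraries held 20.2, 22.3 and 10.1 CPM (f/f) and 10.7, 9.16 and 10.4 CPM (dIEC). Hoil1-/- libraries held 44.8 and 19.8 CPM (f/f, kept), 49.8 and 54.2 CPM (dIEC, kept), and 165 and 37.8 CPM (left out). Again 5 of 6 Hoil1-/- libraries lay above the highest Hoil1+/+ value and f/f replicate 3 did not. The fitted difference on the log2 scale was 1.52 (standard error 0.20), from 13.8 ± 5.82 CPM (SD, n = 6) to 42.1 ± 15.4 CPM (SD, n = 4), and 2.14 (standard error 0.39) with all 12 libraries.

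Chil3 encodes the chitinase-like lectin Ym1, which alternatively activated macrophages and also neutrophils and monocytes make (chr3:106147554-106167564, minus strand). Hoil1+/+ libraries ran from 1.11 CPM through a median of 6.15 CPM to 13.4 CPM, and Hoil1-/- libraries from 3.55 through 6.98 to 24.6 CPM, so that the ranges overlapped and 2 of 6 Hoil1-/- libraries exceeded the highest Hoil1+/+ one. The log2 fold change, 0.17, was smaller than its standard error of 0.71. Of 75-base windows of its transcripts, 12.9% are shared with Chil4 or Gm6522, so reads from those stretches cannot be assigned to Chil3 alone. Chil4 itself was at or below 0.013 CPM in every CD45+ library.

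Arg1 encodes arginase 1, which turns arginine into ornithine and urea (chr10:24915221-24927484, minus strand). Its level was 8.04, 4.54 and 4.04 CPM in Hoil1+/+ f/f libraries and 8.64, 16.7 and 7.82 CPM in Hoil1+/+ dIEC libraries. Among Hoil1-/- libraries it was 74.6 and 13.8 CPM (f/f, kept), 40.2 and 48.5 CPM (dIEC, kept), and 28.7 and 7.37 CPM (left out). The left-out dIEC library was therefore inside the Hoil1+/+ range, as was f/f replicate 3, and the other 4 were above it. Kept Hoil1-/- libraries averaged 44.3 ± 25.1 CPM (SD, n = 4) against 8.29 ± 4.54 CPM (SD, n = 6), which corresponds to a fitted log2 difference of 2.33 with a standard error of 0.39.

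Stab2 encodes stabilin-2, a hyaluronan and scavenger receptor best known from sinusoidal endothelium (chr10:86841198-87008025, minus strand). Hoil1+/+ libraries held 1.14, 4.83 and 1.80 CPM (f/f) and 3.41, 5.99 and 2.90 CPM (dIEC). Hoil1-/- libraries held 38.0 and 6.71 CPM (f/f, kept), 17.6 and 20.3 CPM (dIEC, kept), 9.67 CPM (f/f, left out) and 0 CPM (dIEC, left out). All 4 kept Hoil1-/- libraries were above all 6 Hoil1+/+ ones, as for Retnla and no other member, which makes 2 of 10 members where 0.423% of all genes tested did so. A count of 0 in the left-out dIEC library allows up to 0.0925 CPM, so that this library was below every other one. The log2 fold change was 2.57 (standard error 0.42) in the kept libraries and 2.14 (standard error 0.90) in all 12. Genes overlap Stab2 on the opposite strand, as they do Igf1, Folr2 and Stab1, and 0.804% of its 75-base windows are shared with one of them, Gm16268. The setting for strand used in counting was not given in the sources used here.

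Among the endocytic receptors were the most abundant members, and their fitted Hoil1 differences, apart from Stab2, were 0.05 to 0.37 on the log2 scale. Mrc1 encodes the mannose receptor CD206 (chr2:14229392-14332057, plus strand). It was at 232, 302 and 179 CPM in Hoil1+/+ f/f and 158, 135.0 and 203 CPM in Hoil1+/+ dIEC libraries, against 272 and 151 CPM (f/f, kept), 316 and 400.2 CPM (dIEC, kept), and 677 and 235 CPM (left out) in Hoil1-/- libraries. Of the 6 Hoil1-/- libraries 3 were above the highest Hoil1+/+ library, and the fitted difference was 0.37 (standard error 0.19).

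Stab1 encodes stabilin-1, a scavenger receptor shared by resident macrophages and endothelium (chr14:31139013-31168641, minus strand). Its Hoil1+/+ libraries ran from 243 through a median of 341 to 627 CPM and its Hoil1-/- libraries from 366 through 469 to 947 CPM, with a fitted difference on the log2 scale of 0.36 and a standard error of 0.22. Cd163, the haemoglobin-haptoglobin scavenger receptor (chr6:124304656-124330527, plus strand), ran from 39.5 through 80.6 to 157 CPM and from 26.9 through 116 to 195 CPM, and its fitted log2 difference was 0.05, below its standard error of 0.29. Folr2, a folate receptor used as a resident macrophage marker (chr7:101839988-101857194, minus strand), ran from 0.436 through 5.93 to 12.3 CPM and from 2.66 through 7.67 to 34.3 CPM, and its fitted log2 difference was 0.24, below its standard error of 0.58. The genotypes overlapped for all 3 receptors, and 2 (Stab1), 3 (Cd163) and 2 (Folr2) of the 6 Hoil1-/- libraries exceeded the highest Hoil1+/+ one. Antisense gene Gm10602 shares 47.1% of the 75-base windows of Folr2.

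**Figure D1:**
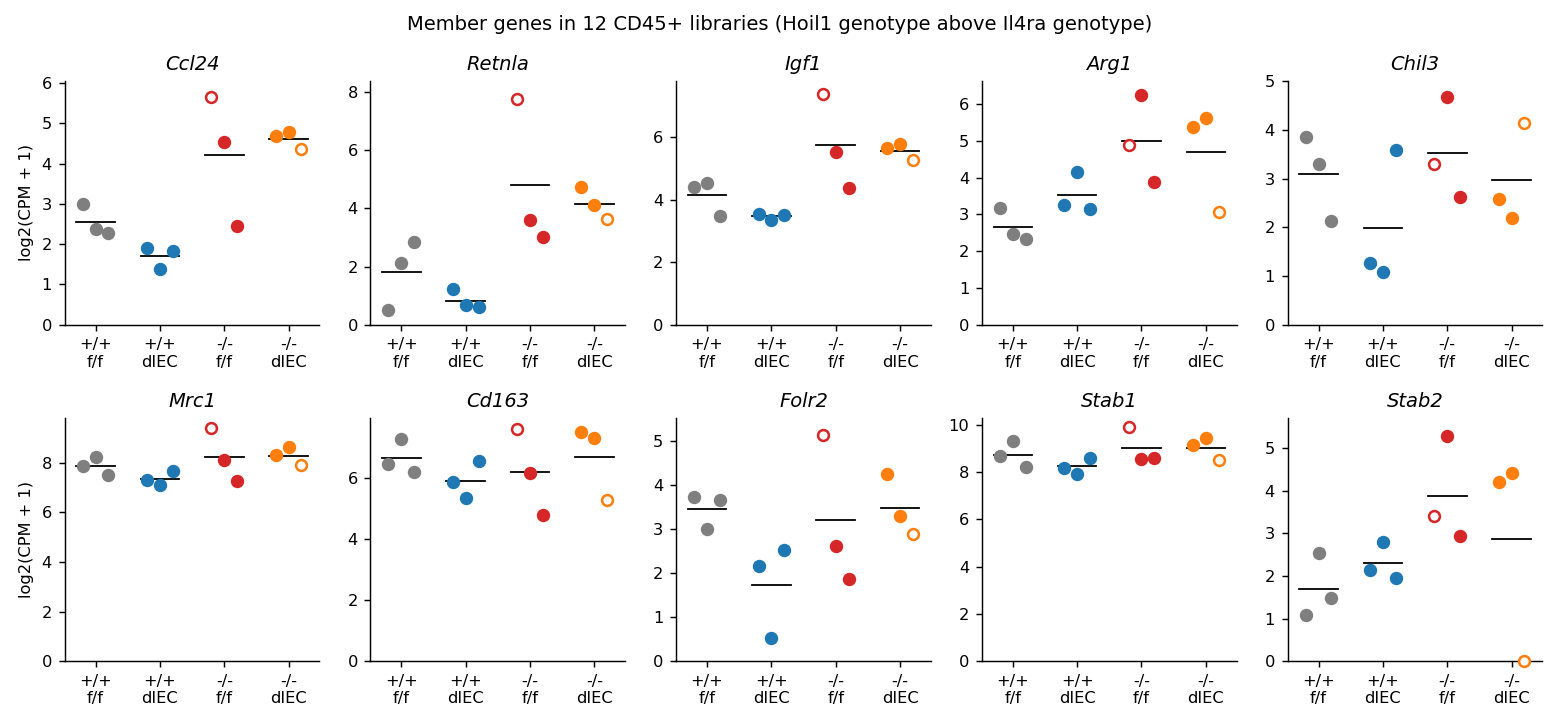
Levels of the 10 genes in every CD45+ library as log2(CPM + 1), by Hoil1 and Il4ra genotype with 3 libraries each; open circles are libraries that the study left out and lines are group means over all 3. The Hoil1-/- points of Retnla all lie above the Hoil1+/+ points, while those of Chil3, Cd163 and Folr2 overlap them.

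Per kilobase of exon, which allows levels to be compared between genes, Stab1 and Mrc1 led in both genotypes. In Hoil1+/+ CD45+ cells the medians over 6 libraries were 33.1 CPM per kb for Stab1, 30.0 for Mrc1 and 14.8 for Cd163, followed by Folr2 (3.83), Chil3 (3.77), Arg1 (3.56), Ccl24 (2.53), Retnla (1.59), Igf1 (1.07) and Stab2 (0.360). The ranges of each pair of neighbours in that order overlapped, except those of Igf1 (0.925 or more) and Stab2 (0.684 or less). In Hoil1-/- cells Mrc1 (46.2 CPM per kb) and Stab1 (45.6) led, Retnla came next (23.4) ahead of Cd163 (21.3), and Ccl24 (18.1) and Arg1 (15.5) came before Folr2 (4.96), Igf1 (4.77), Chil3 (4.28) and Stab2 (1.56). By median Retnla thus had rank 8 in Hoil1+/+ and rank 3 in Hoil1-/- cells, although in Hoil1-/- cells the ranges of all neighbours overlapped.

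Counted together, all 10 members had a positive fitted Hoil1 effect, with a median log2 fold change of 0.95 beside -0.05 over the 17029 genes tested, of which 45.1% were positive. At an adjusted p under 0.05 the edgeR quasi-likelihood test called 1 gene of the whole table, Rbck1 (0.00587% of the genes tested, with 996 genes at an unadjusted p under 0.05). The study's own edgeR analysis of CD45+ cells called further genes besides Rbck1, among them Nmur1, Klrg1, Il5, Il17rb and Epas1. DESeq2 and the edgeR likelihood ratio test, whose error models differ, called 0.74% and 0.605% of all genes. Since the 10 genes were chosen with this contrast known, no test of them in it is given.

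Within the Il4ra genotypes the 10 genes split into sets. In f/f mice, 6 of 10 fitted differences were positive: 2.65 for Arg1 (standard error 0.56), 2.93 for Stab2 (0.61), 1.19 for Retnla (0.87), 1.07 for Ccl24 (0.54), 0.70 for Igf1 (0.29) and 0.52 for Chil3 (1.00), all on the log2 scale. The 4 receptors Mrc1, Cd163, Folr2 and Stab1 were at -0.34, -1.27, -1.69 and -0.28. In dIEC mice, 9 of 10 were positive, with Retnla at 4.68 (standard error 0.95), Ccl24 at 3.43 (0.57), Igf1 at 2.34 (0.29), Stab2 at 2.22 (0.60), Folr2 at 2.17 (0.83) and Arg1 at 2.01 (0.55), and with Cd163, Mrc1 and Stab1 at 1.38, 1.08 and 0.99. Only Chil3, at -0.17 (standard error 1.02), was not. The secreted factors other than Chil3, and the receptors other than Stab2, had the larger fitted difference in dIEC mice, and Chil3, Arg1 and Stab2 had it in f/f mice. Markers of other cell types also split by Il4ra genotype in the kept libraries. Fibroblast markers were fitted higher for 0 of 8 genes in f/f mice (median log2 fold change -0.64) and for 8 of 8 in dIEC mice (2.46), 6 of these at an unadjusted p under 0.05 and 5 called by DESeq2. Mast cell markers were higher for 3 of 8 (-0.70) and 8 of 8 (1.17), blood endothelial markers for 5 of 8 (0.23) and 8 of 8 (1.78), and epithelial markers for 8 of 8 (0.70) and 0 of 8 (-2.21). The part of these cells in the split was not tested.

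The split changed with 1 left-out f/f library. Over all 12 libraries the f/f differences of Mrc1, Folr2 and Stab1 turned positive (0.38, 0.06 and 0.19), Cd163 stayed negative at -0.34, and that of Retnla went from 1.19 to 4.18, next to 4.61 in dIEC mice. The fitted difference between the 2 Il4ra genotypes in the Hoil1 effect was 3.49 (standard error 1.29) for Retnla and 2.65 (0.59) for Cd163 in the kept libraries, and 0.43 (1.58) and 1.38 (0.85) in all 12. Counting libraries within a genotype, all 3 Hoil1-/- were above all 3 Hoil1+/+ for Retnla, Arg1 and Stab2 in f/f mice and for Ccl24, Retnla, Igf1, Mrc1 and Folr2 in dIEC mice, beside 2.62% and 2.98% of all genes tested. The edgeR test called 0 genes of the whole table for the Hoil1 effect in f/f mice, in dIEC mice and for their difference (0% of genes each). At an unadjusted p under 0.05 there were 898, 1035 and 1193 genes.

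**Figure D2:**
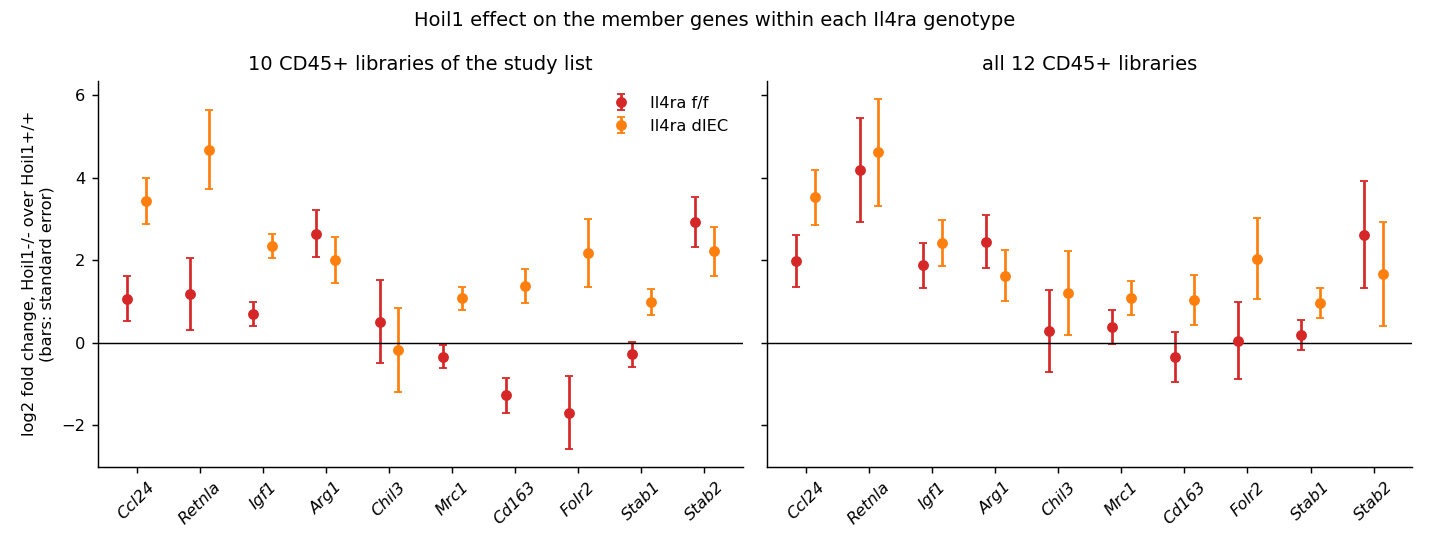
Fitted log2 fold change of Hoil1-/- over Hoil1+/+ CD45+ cells for each gene within Il4ra f/f and Il4ra dIEC mice, with bars of 1 standard error, from the 10 kept libraries (left) and all 12 (right). Arg1 and Stab2 are high in both genotypes on the left, and Mrc1, Folr2 and Stab1 in f/f mice change sign between the panels.

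Averaged over Hoil1 genotypes, most of the genes had lower fitted levels in mice that lacked epithelial Il4ra. On this average 2 of 10 fitted differences of dIEC from f/f were positive, Arg1 (0.17) and Cd163 (0.26), and the median was -0.32 beside -0.01 for all genes. The most negative was Chil3, at -1.59 (standard error 0.73), followed by Retnla at -0.80 (0.63) and Ccl24 at -0.40 (0.39). By mean CPM in the kept libraries, Ccl24, Retnla, Igf1, Mrc1, Cd163, Folr2 and Stab1 went opposite ways by Hoil1 genotype. They were lower in dIEC than f/f mice with Hoil1+/+, and higher with Hoil1-/-. Retnla averaged 3.29 (f/f) and 0.811 CPM (dIEC) with Hoil1+/+, and 9.02 and 20.9 CPM with Hoil1-/-. Chil3 was lower in dIEC mice with either Hoil1 genotype. Over all 12 libraries Cd163 turned to -0.42, so that 1 of 10 was positive, and Retnla went to -2.36 (0.83). The Hoil1-/- means of Retnla were then 78.3 (f/f) and 17.8 CPM (dIEC). Over the whole table edgeR called 0.00587% of genes, 1 gene, with 1805 at an unadjusted p under 0.05.

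The Hoil1 difference was then set out within each age group. Among the 7 older libraries (3 Hoil1+/+ and 4 Hoil1-/-, all kept), Hoil1-/- was above Hoil1+/+ without overlap for 3 of 10 members, Ccl24 (4.48 to 26.4 against 1.63 to 4.23 CPM), Retnla (7.02 to 25.3 against 0.595 to 3.35 CPM) and Stab2 (6.71 to 38.0 against 3.41 to 5.99 CPM), where 1.23% of all genes met this condition. Among the 5 younger libraries (3 Hoil1+/+ and the 2 left-out Hoil1-/-), it held for 4 of 10, Ccl24 (19.5 to 49.6 against 2.53 to 6.96 CPM), Retnla (11.5 to 217 against 0.413 to 6.10 CPM), Igf1 (37.8 to 165 against 10.1 to 20.2 CPM) and Mrc1 (235 to 677 against 179 to 232 CPM), where 9.87% of all genes did. Ccl24 and Retnla were thus higher in Hoil1-/- mice within both ages, and Arg1 and Stab2 overlapped in the younger one. With age group as a term, the log2 fold change over the kept libraries was 2.95 (standard error 0.90) for Retnla, 2.63 (0.50) for Ccl24, 1.61 (0.26) for Igf1, 2.47 (0.55) for Arg1 and 2.24 (0.51) for Stab2, and 1.401 (0.70) for Chil3, whose value was 0.17 without the term. All 4 kept Hoil1-/- libraries are of the older mice. The age term in this fit therefore rests on Hoil1+/+ libraries alone and cannot show an age effect in Hoil1-/- mice. A fit with the term over all libraries adds the 2 left-out Hoil1-/- ones, of younger mice. It gave 4.26 (standard error 0.88) for Retnla, 2.85 (0.38) for Ccl24 and 2.14 (0.34) for Igf1. For Arg1 it gave 1.85 (0.46), for Stab2 1.56 (0.92) and for Chil3 1.22 (0.62).

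The members were set beside the 18 core macrophage genes to express them relative to the macrophage mRNA of each library. The summed core level was 11317 to 18898 CPM in the 6 Hoil1+/+ libraries, 11025 to 17744 CPM in the 4 kept Hoil1-/- ones, and 33036 CPM in the left-out f/f library, the highest of all. The difference in its mean log2 level was -0.13 in the kept libraries (two-sided exact permutation test over 210 splits of 10 libraries, p = 0.638), and 0.18 over all 12 (exact permutation test, 924 splits, p = 0.578), so a difference was not detectable. Its sign changed with the libraries used, and was also positive (0.0047) in the kept ones without Hoil1+/+ f/f replicate 1. These splits take no account of Il4ra genotype or age, and all 4 kept Hoil1-/- libraries are of the older mice. By Il4ra genotype, 0 of the 18 genes were fitted higher in f/f mice (median log2 fold change -0.64, 6 lower at an unadjusted p under 0.05) and 17 in dIEC mice (0.44, 3 higher at that p), and 8 had an unadjusted p under 0.05 for the difference between the Il4ra genotypes. By edgeR 0 of the 18 genes rose or fell in the Hoil1 effect over both, with 1 lower at an unadjusted p under 0.05 and 0 called by DESeq2 or the likelihood ratio test.

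Expressed per 1000 counts on core macrophage genes, 3 of the 10 members were higher in all 6 Hoil1-/- than in all 6 Hoil1+/+ libraries, where 0.112% of all genes tested were. Retnla was at 0.0219 to 0.457 in Hoil1+/+ and 0.637 to 6.56 in Hoil1-/- libraries. Ccl24 was at 0.144 to 0.368 and 0.407 to 1.84, and Igf1 at 0.628 to 1.34 and 1.80 to 4.99. On this scale f/f replicate 3, which overlapped the Hoil1+/+ range in CPM, no longer did for Ccl24 and Igf1. In the 4 kept Hoil1-/- libraries Stab2 also met the condition (0.609 to 3.16 against at most 0.529), and 0.534% of all genes did. Arg1 and Mrc1 exceeded the highest Hoil1+/+ library in 3 of 6 Hoil1-/- libraries, Chil3 and Folr2 in 2, and Cd163 and Stab1 in 1. Mrc1 was at 11.9 to 18.2 in Hoil1+/+ and 13.7 to 22.6 in Hoil1-/- libraries and Stab1 at 21.5 to 37.7 and 22.4 to 39.0, so both genotypes overlapped for these 2 receptors.

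**Figure D3:**
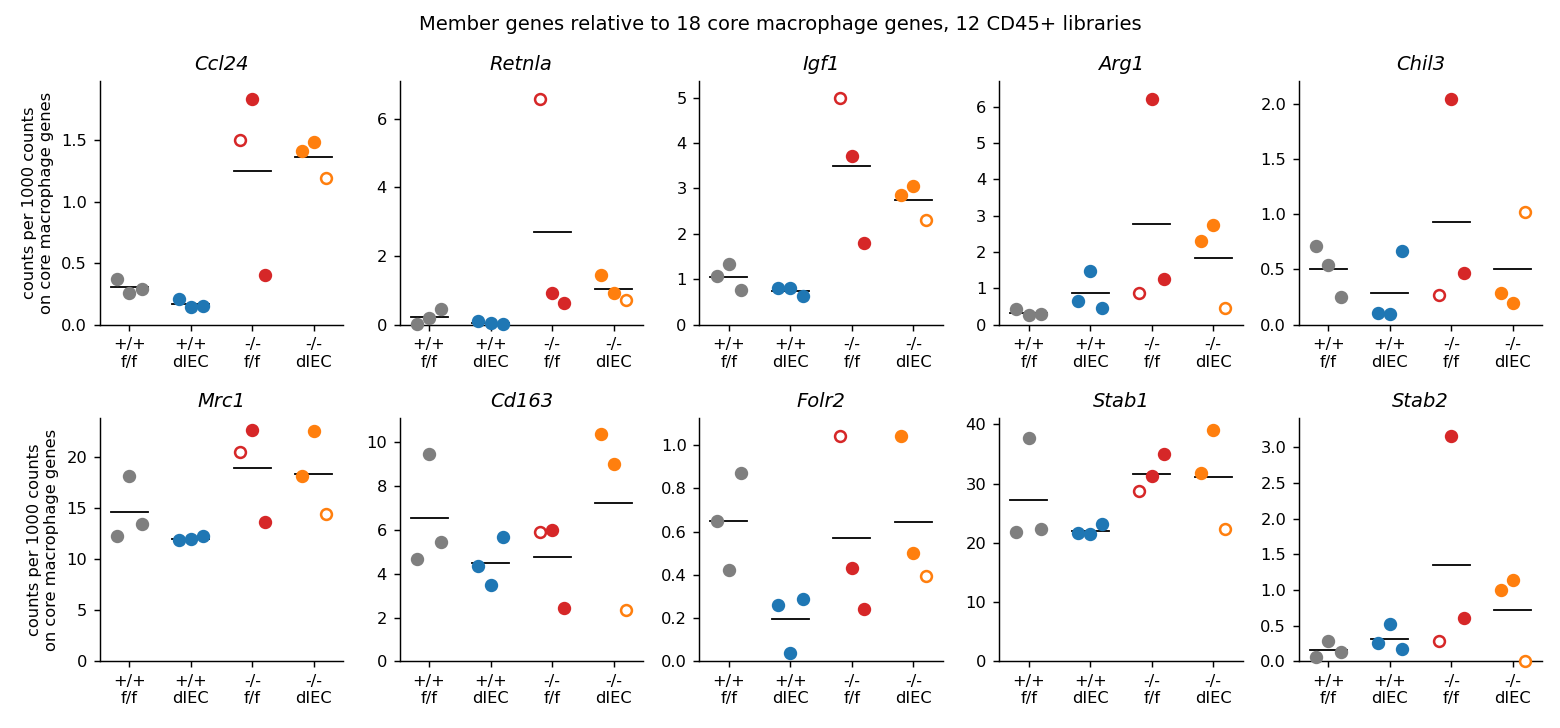
Counts of each gene per 1000 counts on 18 core macrophage genes in the 12 CD45+ libraries by genotype, with open circles for libraries the study left out and lines for group means over 3 libraries. Retnla, Ccl24 and Igf1 separate the Hoil1 genotypes without overlap on this scale, and Cd163, Stab1 and Chil3 do not.

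Arg1 and Stab2 were highest in the libraries with the highest levels of markers of another cell type. The summed level of 10 ILC2 marker genes was 33.9, 135 and 38.2 CPM in Hoil1+/+ f/f, 249, 285 and 97.9 CPM in Hoil1+/+ dIEC, 152, 800.4 and 125 CPM in Hoil1-/- f/f, and 800.2, 653 and 92.6 CPM in Hoil1-/- dIEC libraries, in order of replicate. The 3 libraries with the highest sums were the 3 with the highest Arg1 and the 3 with the highest Stab2, and the left-out dIEC library, with the lowest ILC2 sum of the Hoil1-/- libraries, had the lowest Arg1 and no Stab2 count in that genotype. Other libraries did not follow the sums. Hoil1+/+ dIEC replicates 1 and 2, at sums of 249 and 285 CPM, held Stab2 at 3.41 and 5.99 and Arg1 at 8.64 and 16.7 CPM. Hoil1-/- f/f replicates 1 and 3, at lower sums of 152 and 125 CPM, held Stab2 at 9.67 and 6.71 and Arg1 at 28.7 and 13.8 CPM. All 10 ILC2 markers were fitted higher in Hoil1-/- cells, by a median log2 fold change of 3.33. The list holds Nmur1, Klrg1, Il17rb and Il5, which the paper's own edgeR analysis had already called in these CD45+ samples. The values of ILC2 markers given here are therefore a description and not an independent result. The paper also reported a higher ILC2 frequency by flow cytometry. Within each age the summed levels overlapped between Hoil1+/+ and Hoil1-/- libraries, at 33.9 to 97.9 and 92.6 to 152 CPM in the younger and at 135 to 285 and 125 to 800.4 CPM in the older mice. By edgeR 0 passed the threshold over all genes, with 9 at an unadjusted p under 0.05 and 7 called by DESeq2 and by the likelihood ratio test. Il17rb (3.79, standard error 0.51), Nmur1 (3.77, 0.51) and Klrg1 (2.88, 0.40), which encode the IL-25 receptor, the neuromedin U receptor and a lectin-like receptor of ILC2, each had an edgeR adjusted p of 0.0968. Over all 12 libraries Ccl24, Retnla and Igf1 had another order, since each was highest in the left-out f/f library, where the ILC2 sum was 152 CPM. Among the kept libraries, however, the 3 with the highest ILC2 sums were also the 3 highest for each of these genes. The part of ILC2 in the differences of Arg1, Stab2, Ccl24, Retnla and Igf1 was not tested.

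**Figure D4:**
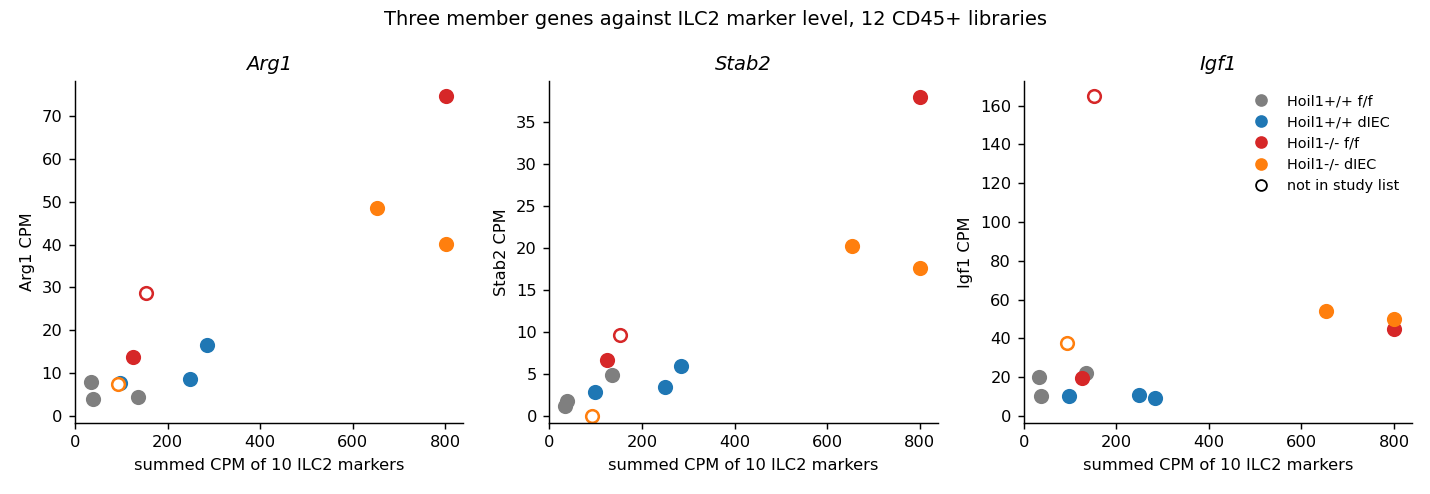
Arg1, Stab2 and Igf1 CPM against the summed CPM of 10 ILC2 marker genes in the 12 CD45+ libraries, coloured by genotype, with open circles for libraries the study left out. The 3 libraries with the highest ILC2 sums, 653 to 800.4 CPM, have the highest Arg1 and Stab2. The highest Igf1 value, 165 CPM, sits at an ILC2 sum of 152 CPM in a left-out library. Among kept libraries those 3 also have the highest Igf1.

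Sums of other marker lists are given beside the members, and their part in the differences was not tested. Monocyte markers other than Chil3 were at 347 to 603 CPM in Hoil1+/+ and 421 to 851 CPM in Hoil1-/- CD45+ libraries, neutrophil markers at 391 to 768 and 333 to 1054, eosinophil markers at 21.01 to 67.3 and 48.4 to 68.3, dendritic cell markers at 419 to 1431 and 489 to 718, mast cell markers at 199 to 1154 and 306 to 1184, and B and plasma cell markers at 14167 to 32226 and 10052 to 29545. Their ranges overlapped in each case. Fibroblast markers were at 24.02 to 64.5 and 22.003 to 258 CPM and blood endothelial markers at 76.7 to 155 and 81.7 to 342 CPM, with 8 of 8 genes of each list fitted higher, 4 and 3 of them at an unadjusted p under 0.05. Lymphatic endothelial markers were at 19.9 to 46.3 and 15.2 to 47.3 CPM with 3 of 7 higher. Epithelial markers were at 59.4 to 484 and 36.1 to 372 CPM with 0 of 8 higher. For the Hoil1 effect edgeR called 0 genes of these lists and of the T cell list, in which 1 of 8 was higher, and DESeq2 and the likelihood ratio test called 0 as well. Beyond the fibroblast and blood endothelial genes, 1 dendritic cell gene was lower and 1 B and plasma cell gene and 1 lymphatic gene were higher at an unadjusted p under 0.05.

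CD45- cells served as the contrast. Neither Chil3 nor Folr2 was detected in the 12 CD45- libraries, against pooled levels of 9.27 and 8.62 CPM in CD45+ cells, so that the pooled level was at least 716-fold and at least 666-fold higher in CD45+ cells (against 3 counts over the 12 libraries, 0.0129 CPM). Retnla, Cd163, Ccl24 and Stab2 had counts in 1 to 3 CD45- libraries and Mrc1 in 6, and their pooled CD45+ levels were 383-fold (Retnla), 305-fold (Cd163), 190.0-fold (Mrc1), 48.7-fold (Ccl24) and 23.2-fold (Stab2) those of CD45- cells. Single libraries carried several of these ratios. For Retnla, 5893 of 8848 CD45+ counts were in the left-out f/f library, without which the ratio was 135, and all 10 CD45- counts were in Hoil1-/- dIEC replicate 1, without which it was at least 1178.5 (against 3 counts over the other 11 libraries). For Ccl24, 44 of 51 CD45- counts were in Hoil1-/- f/f replicate 2, and the ratio without it was 308. For Cd163 the ratio was 519.7 without CD45- Hoil1-/- f/f replicate 1. For Stab2 it was 14.1 without CD45+ Hoil1-/- f/f replicate 2 and 38.1 without CD45- Hoil1+/+ f/f replicate 3. Arg1, with counts in 8 CD45- libraries at up to 2.89 CPM, was 18.5-fold higher in CD45+ cells. Every CD45+ library was above every CD45- library for 6 of 10 members, Ccl24, Arg1, Chil3, Mrc1, Cd163 and Folr2, beside 5.12% of all genes tested.

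Igf1 and Stab1 were the 2 members with a substantial level outside the leukocytes, at pooled ratios of only 2.29 and 2.59. Stab1 was at 46.4 to 338 CPM in the 12 CD45- libraries and Igf1 at 0 to 26.5 CPM. Both were highest in Hoil1-/- dIEC replicate 2, the library with the highest sums of blood endothelial markers (19621 CPM) and fibroblast markers (11451 CPM), whose ranges over CD45- libraries were 2397 to 19621 and 492 to 11451 CPM. Core macrophage genes summed to 368 to 942 CPM in CD45- libraries, far below the 11025 CPM of the lowest CD45+ library, and Mrc1 and Cd163 were at most 4.27 and 2.65 CPM there. The cells that hold Igf1 and Stab1 in the CD45- fraction were not tested.

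**Figure D5:**
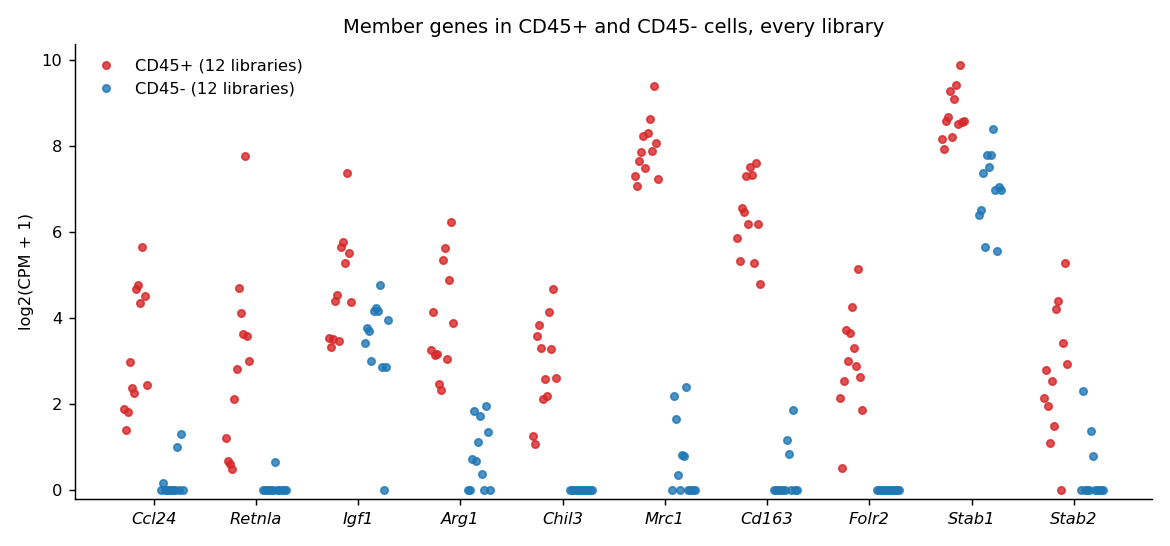
Levels of the 10 genes as log2(CPM + 1) in the 12 CD45+ and 12 CD45- libraries, 1 point per library. Stab1 and Igf1 are the genes with a clear level in CD45- cells, and Chil3 and Folr2 are at 0 in all 12 CD45- libraries.

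The Hoil1 effect in CD45- cells was tested for the members that passed the filter there, 7 of 10. Igf1 was at 7.03, 17.1, 17.8, 9.81, 12.6 and 11.95 CPM in the Hoil1+/+ libraries and at 0, 6.34, 17.1, 26.5 and 6.30 CPM in the kept Hoil1-/- ones. The groups overlapped, and the fitted log2 difference was -0.76 (standard error 0.78, edgeR adjusted p = 1.00). Stab1, at 49.3 to 220 CPM in Hoil1+/+ and 46.4 to 338 CPM in kept Hoil1-/- libraries, differed by 0.18 on the log2 scale (standard error 0.40, edgeR adjusted p = 1.00). No member was called by edgeR, DESeq2 or the likelihood ratio test, beside 3 genes (0.0182%) by edgeR, and 1 member, Cd163, at 0 to 2.65 CPM, had an unadjusted p under 0.05. The Igf1 value rested on 1 library. Without CD45- Hoil1-/- f/f replicate 2 that arm held 1 kept library, with no Igf1 count and its spread taken from the other groups, and the fitted value, then set by that 0 and no measure of a fold, was -5.36 (standard error 0.96, edgeR adjusted p = 0.0339).

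Other genes of the same pathways were read from lists that hold none of the 10 members. By edgeR no gene of these lists passed the threshold over all genes for the Hoil1 effect in CD45+ cells. Of 24 further alternative activation genes tested, 14 were higher (median log2 fold change 0.24), 4 of them and no lower gene at an unadjusted p under 0.05, with 0 called by DESeq2 and 1 by the likelihood ratio test. The 3 with the smallest p were Clec10a, a macrophage galactose lectin, Flt1, a VEGF receptor, and Rnase2a, an eosinophil-type ribonuclease. Clec10a was at 11.7 to 36.2 CPM in Hoil1+/+ and 20.0 to 105 CPM in Hoil1-/- libraries (0.69, standard error 0.22) and Flt1 at 1.62 to 7.83 and 2.19 to 24.5 CPM (1.60, 0.52), each at an edgeR adjusted p of 0.783. Rnase2a had no count in Hoil1+/+ and at most 2.10 CPM in Hoil1-/- libraries. The related lectin Mgl2, at 54.0 to 156 and 82.0 to 510.5 CPM, was among the genes most like Ccl24.

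Of 19 tissue-resident macrophage genes tested, 11 were higher (median log2 fold change 0.08), 1 of them at an unadjusted p under 0.05 and called by DESeq2 and the likelihood ratio test. That gene was Siglec1, the sialoadhesin of resident macrophages, at 30.7 to 100.1 CPM in Hoil1+/+ and 51.7 to 279 CPM in Hoil1-/- libraries (1.08, standard error 0.20, edgeR adjusted p = 0.334). Over all 12 libraries 17 of the 19 were higher (median 0.76), and likewise 17 of the 18 core genes instead of 4. Among f/f mice alone 4 of the 19 and 0 of the 18 were higher in the kept libraries, and among dIEC mice 18 and 17. In the kept libraries the receptors Mrc1, Stab1, Cd163 and Folr2 were likewise lower in f/f and higher in dIEC mice by their fitted values.

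The mRNAs of IL-4, IL-13 and their signalling genes were read in the same libraries. They are levels in CD45+ cells as a whole and no measure of signalling in macrophages. Il13, the ILC2 and T cell cytokine, was at 0 to 3.15 CPM in Hoil1+/+ and 2.21 to 49.3 CPM in Hoil1-/- libraries (4.24, standard error 0.96, edgeR adjusted p = 0.516), and Il4 at 1.48 to 4.08 and 0 to 18.1 CPM (1.67, 0.53, edgeR adjusted p = 0.783). Of 9 genes of IL-4 and IL-13 signalling tested, 4 were higher (median -0.00), and these 2 cytokines alone had an unadjusted p under 0.05, with 1 called by DESeq2 and 1 by the likelihood ratio test. For the receptor and its transcription factor, named here for their role after their values were seen, Il4ra in CD45+ cells was at 74.9 to 268 and 60.9 to 293 CPM and Stat6 at 99.1 to 189 and 57.2 to 187 CPM.

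Relatives of single members were counted in the same way. In the IGF axis 6 of 13 genes were higher (median -0.17), with Igfbp7, an IGF-binding protein-like gene, at 4.52 to 10.8 and 2.13 to 36.8 CPM (1.08, standard error 0.35). In arginine metabolism 3 of 11 were higher (median -0.18), and Srm, spermidine synthase, was at 26.9 to 62.2 and 15.6 to 51.6 CPM (-0.87, standard error 0.30). Of RELM and chitinase-like relatives 3 of 9 were tested and all 3 were higher (median 0.10), with Retnlg at 1.27 to 45.7 and 5.87 to 72.6 CPM. The other eotaxin Ccl11 and the receptor Ccr3, which CCL24 binds, were higher by 0.39 (standard error 1.61) and 1.04 (1.18), and 4 of 12 scavenger, mannose and folate receptor relatives were higher (median -0.12). At an unadjusted p under 0.05 there were 1 higher and 1 lower gene in the IGF axis, 1 lower in arginine metabolism, 1 lower among the receptor relatives and 0 in the other 2 lists, and DESeq2 and the likelihood ratio test called none in any of the 5.

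Across the 12 CD45+ libraries the members fell into sets by the Pearson correlation of log2(CPM + 1), given as a description because all points share libraries, depth and genotype. Ccl24 and Igf1 were closest (r = 0.959), Retnla ran with Igf1 (0.902), Mrc1 with Stab1 (0.934) and Igf1 (0.908), and Arg1 with Stab2 (0.866). The sets were less apart in the 10 kept libraries. There Stab2 ran with Igf1 at 0.791, Ccl24 at 0.763 and Retnla at 0.751, where all 12 gave 0.449, 0.421 and 0.419. Arg1 ran with Igf1 at 0.772 (0.633 over all 12). Retnla ran with Igf1 at 0.795 and Arg1 with Stab2 at 0.924 in the kept libraries. Among all other genes the closest to Ccl24 were Ifi27l2a (0.939) and Mgl2 (0.923) and to Igf1 were Ifi27l2a (0.960) and Clec10a (0.941). Those closest to Retnla were St6galnac5 (0.913) and Gm8234 (0.892). The genes nearest to Arg1 were Nmur1 (0.921) and Epas1 (0.901) and to Stab2 Il17rb (0.953), and Nmur1 and Il17rb are ILC2 markers. Mrc1 was closest to Fcgr2b (0.967) and Gas7 (0.966), Stab1 to C4b (0.947), Cd163 to Dab2 (0.933) and Man1c1 (0.921), and Folr2 to Fut4 (0.919) and Ifitm3 (0.906). Chil3 was closest to Hacd1 and Mcpt8 (0.869 each), the latter a basophil protease gene.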

How the data were processed

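Bulk RNA-seq was performed on 24 sorted ileal samples. The authors deposited whole-number counts per gene, made with cutadapt, STAR (mm10) and featureCounts (ENSEMBL annotation) from poly-A libraries of a strand-selecting kit. Of 39056 gene IDs, 38872 were paired with a GENCODE M21 symbol. Groups follow the labels for fraction and genotype.

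Counts were fitted with edgeR 4.0.16 (R 4.3.3) using TMM scaling (factors 0.671 to 1.22 in CD45+ cells), a low-count filter (minimum count 10, minimum total 15), the quasi-likelihood test and Benjamini-Hochberg adjustment over all genes, with a threshold of 0.05. The Hoil1 effect is Hoil1-/- over Hoil1+/+ averaged over Il4ra genotypes. CPM levels were not TMM-scaled. Scripts were tested on simulated data. Alternatives were all libraries, RLE size factors, no filter, DESeq2 1.42.0, the likelihood ratio test, removal of immunoglobulin genes, and each library left out, and an age term and CD45+ to CD45- ratios without single libraries were chosen after seeing the data. Members and lists were chosen with earlier results of these data known. Besides the members and Rbck1, named genes are list genes past the threshold, at most 3 per list with the smallest unadjusted p for the Hoil1 effect in CD45+ cells, and for each member the 2 genes most correlated with it, of which 1 each for Stab1 and Stab2 is not reported here. Ptprc, Chil4, Il4ra and Stat6 were named outside this rule, after their values were seen. Il5 was named because the paper called it. Floors of 3 counts cover counting error only.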

Additional observations from a re-analysis of the deposited data

Results flagged for a closer look

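Each of the 10 genes and the summed core macrophage level in CD45+ cells, and Igf1 and Stab1 in CD45- cells, were searched within each Hoil1 genotype for 1 library set apart from the other 5 by a large gap relative to the range of all 6 (Dixon's test). Of 26 groups of 6 libraries, 4 held such a library. The cutoff flags about 1 in 20 groups by chance if groups are independent and normally spread. These groups share libraries and genes that move together, so the count is a description and no measure of an excess. Retnla, at 217 CPM, and Igf1, at 165 CPM, stood apart in CD45+ Hoil1-/- Il4ra f/f replicate 1, as did the summed level of the 18 core macrophage genes, at 33036 CPM, and this is a library that the study left out. Arg1, at 16.7 CPM, stood apart in CD45+ Hoil1+/+ Il4ra dIEC replicate 2, which also had the highest summed ILC2 marker level of the Hoil1+/+ libraries, 285 CPM. Relative to the core macrophage genes, Retnla was at 6.56 and Igf1 at 4.99 per 1000 counts in the left-out library, still the highest values of each.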

How the results depend on the processing

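Of the fitted Hoil1 differences in CD45+ cells, those of Ccl24, Retnla, Igf1, Arg1, Mrc1, Stab1 and Stab2 kept their sign under all 18 alternatives, and those of Chil3, Cd163 and Folr2 under 14, 15 and 16. The number of genes called by edgeR for the Hoil1 effect in CD45+ cells, 1, became 2 with all libraries, 6 without a filter, 6 without immunoglobulin genes, 28 with age group as a term (26 of them lower) and 4 with that term and all libraries, and DESeq2 and the likelihood ratio test called 126 and 103. In f/f mice the count, 0, became 1, 3, 2, 0 and 1 in that order, with 93 and 66 by the other tools. In dIEC mice, 0 became 1 with all libraries and 1 with either age fit, with 159 and 51. For the Il4ra effect, 1 became 0 with all libraries and 0 with either age fit, with 341 and 201. The interaction, 0, became 160 and 68 by the other tools. In CD45- cells, 3 became 0 with all libraries, 1 with RLE size factors, and 168 and 135 by the other tools. Leaving out 1 library gave 1 to 10, 0 to 7, 0 to 0, 0 to 8, 0 to 0 and 1 to 173 calls in these contrasts. The 173 came without CD45- Hoil1-/- f/f replicate 2, and the 10 without CD45+ Hoil1-/- f/f replicate 3. The 8 came without CD45+ Hoil1+/+ f/f replicate 3. The core macrophage difference of -0.13 became 0.18 with all libraries, ranged from -0.27 to 0.0047 when 1 library was left out, and was positive without CD45+ Hoil1+/+ f/f replicate 1. The cause of these changes was not tested. On TMM-scaled CPM, Arg1 also separated the genotypes without overlap in the kept libraries.

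No paired analysis was possible because the replicate numbers were given in accession order and pair no samples. Each group has 2 to 3 kept libraries, and in the shallowest CD45- library 3 counts correspond to 0.498 CPM, so that members below that level are not detectable there.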
